A study of Mus musculus with 16 samples.

Results

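The genes described here encode 9 neuropeptide precursors that are used as markers of dorsal horn neurons: *Tac1*, *Tac2*, *Penk*, *Pdyn*, *Nts*, *Grp*, *Cck*, *Sst* and *Npy*. They were chosen by name, and all 9 were found among the 18167 genes of the table, with values in all 16 mice. Spinal cord mRNA of transgenic mice was sequenced with 1 library per mouse. Mutant mice carried human *PFN1* with the G118V change (hPFN1 G118V, Tg(Prnp-PFN1*G118V)838Kiaei on C57BL/6N), a model of amyotrophic lateral sclerosis, and controls carried the unchanged human gene (hPFN1 WT, Tg(Prnp-PFN1)850Kiaei on the same background). In both strains the *Prnp* promoter drove the transgene, so every group expressed human *PFN1*, and no group lacked a transgene. The groups were 3 young control mice (WY) and 3 pre-symptomatic mutant mice (MY), all 50 days old, 5 old control mice (WO) and 5 mutant mice at end-stage (MO). The WO mice were 190, 190, 190, 294 and 294 days old, and the MO mice were 198, 190, 245, 224 and 175 days old. All young mice belonged to batch 1, whereas WO4, WO5, MO4 and MO5 belonged to batch 2 and the other old mice to batch 1.

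Neuropeptides are cut from larger precursor proteins, stored in dense-core vesicles and released to act on G protein-coupled receptors. In the superficial dorsal horn, the sensory part of the cord that receives pain, itch and temperature input, their genes mark separate sets of interneurons. *Tac1*, *Tac2*, *Nts*, *Grp*, *Cck* and *Sst* are known mainly from excitatory neurons, *Npy* and much of *Pdyn* from inhibitory neurons, and *Penk* from both.

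Whole spinal cord was measured, so neurons outside the dorsal horn also contributed to each value. Of 21 genes listed for dorsal horn neurons other than peptides, all 21 were in the table with a mean of at least 1 on the log2(1 + FPKM) scale. The highest were *Calb2* (mean 7.22) and *Gad1* (mean 6.13), which encode calretinin and a GABA-synthesizing enzyme. In bulk tissue, fewer cells of a type and less RNA per cell cannot be told apart.

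One library went against its label of sex, so the identity of its mouse is open. All mice were described as male, but in MO5 the level of *Xist* was 3.21, against −0.36 to 0.37 in the other 15 mice, and that of the Y-linked *Ddx3y* was 1.95, against 4.06 to 4.74. The fold changes of the precursors in WO vs. MO and MY vs. MO are therefore also given without MO5. Correlations and fits with the length trend removed include it. In MO5 the summed FPKM of microglial markers (497) lay among the other MO mice and above WO (101 to 166). That of motor neuron markers (103) lay among the other MO mice and below WO (141 to 171).

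All levels below are log2(1 + FPKM), which is scaled to transcript length and allows genes to be ordered. *Sst* was the highest of the 9 precursors (7.32 ± 0.22, SD, n = 16 mice), which corresponds to an FPKM of 158. *Penk* followed at 7.07 ± 0.11 (FPKM 134), then *Tac2* at 6.08 ± 0.34 (66.7) and *Cck* at 5.66 ± 0.23 (49.7). All 9 precursors had a mean above that of at least 57.8% of the genes in the table. *Npy* (5.16 ± 0.22, FPKM 34.9) and *Tac1* (5.10 ± 0.22, FPKM 33.4) had nearly the same level. *Nts* was lower at 4.53 ± 0.27 (FPKM 22.2), and *Grp* at 3.39 ± 0.21 (FPKM 9.49) and *Pdyn* at 3.29 ± 0.21 (FPKM 8.77) were the lowest. In this order, the mean ± SD of *Sst* and *Penk*, of *Tac2* and *Cck*, of *Npy* and *Tac1*, and of *Grp* and *Pdyn* overlapped. Within mice, *Sst* was above *Penk* in 15 of 16, *Tac2* above *Cck* in 13, *Grp* above *Pdyn* in 12 and *Npy* above *Tac1* in 11. The ranges of *Penk* and *Tac2* did not overlap in any mouse, and neither did those of *Nts* and *Grp*. In the annotation, 1 exon of *Penk* overlaps an exon of the transcript *A830012C17Rik* on the opposite strand, and *Grp* lies within an antisense gene whose exons do not overlap its own. The library kit kept strand, but whether FPKM were computed by strand is not given in the sources used here.

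**Figure D1:**
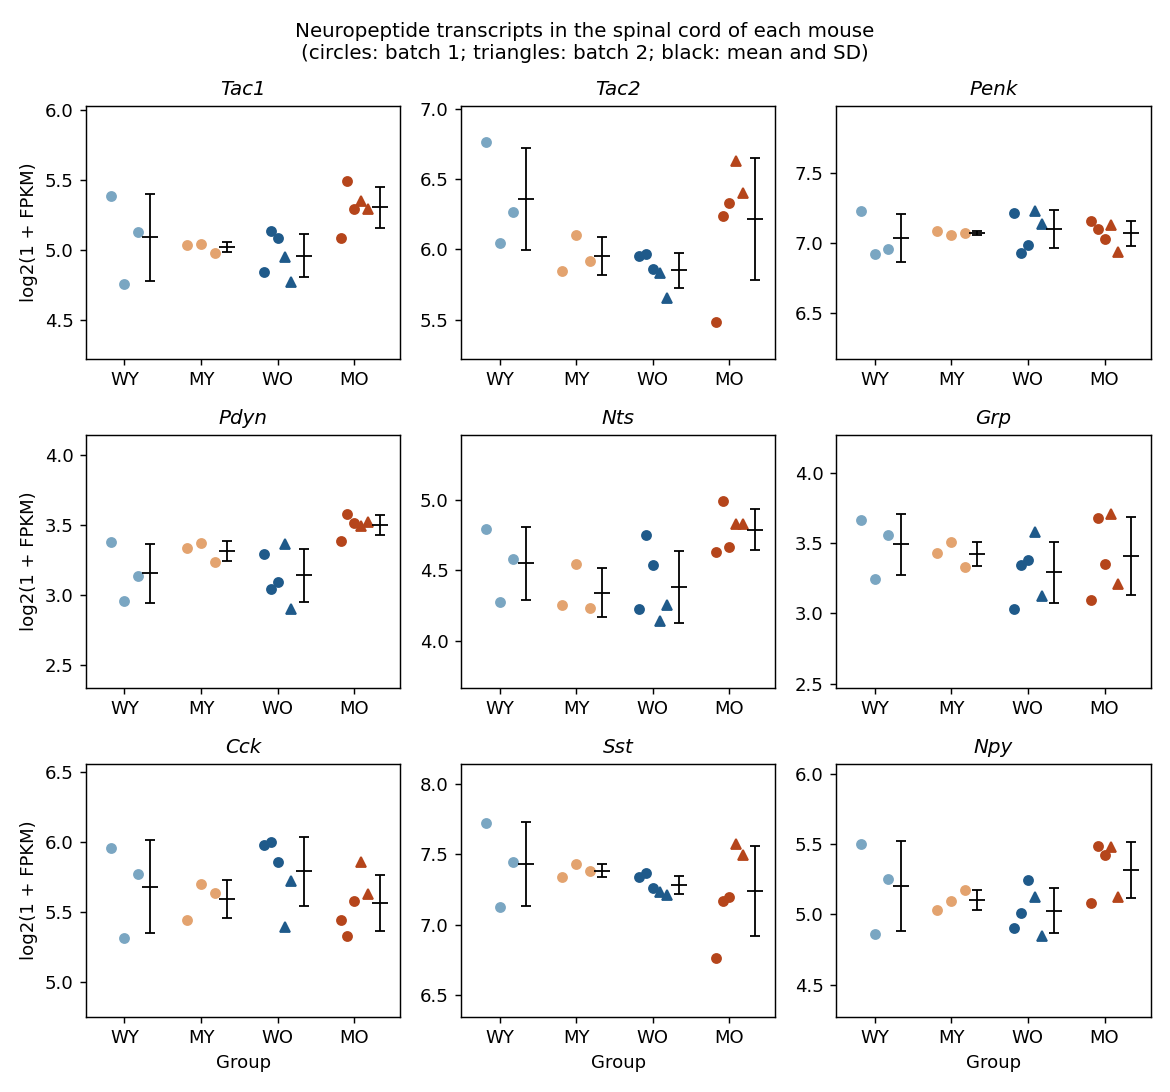
Level of each neuropeptide precursor in each mouse, as log2(1 + FPKM), by group (WY, MY, WO, MO). Each point is a mouse (circles batch 1, triangles batch 2), black marks are the group mean with its SD, and every panel spans the same number of log2 units. All 5 MO mice lie above the 5 WO mice for *Pdyn*, and MO1 lies below every other mouse for *Tac2* and *Sst*.

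A gene was called when its FDR was at or below 0.05 and its fold change was at least 1.5 in either direction, and calls at the FDR alone were counted separately. None of the 9 precursors was called in WO vs. MO, where 4.60% of all genes were, or in MY vs. MO, where 4.90% were. At the FDR alone, 3 of 9 were higher in MO than in WO, against 15.0% of all genes, and 3 of 9 were higher in MO than in MY, against 13.1%. They were *Tac1*, *Pdyn* and *Nts* in both comparisons, which share the 5 MO mice. None of the 9 was lower, against 12.9% of all genes in WO vs. MO and 12.5% in MY vs. MO. The median log2 fold change of the 9 was 0.29 in WO vs. MO and 0.19 in MY vs. MO, with 0.00 over all genes in each. An unadjusted p under 0.05 in limma was reached by 4 of the 9 in WO vs. MO and by 3 in MY vs. MO, against 38.5% and 36.7% of all genes. Without MO5 the FDR was passed by 3 of 9 in WO vs. MO (*Tac1*, *Pdyn* and *Npy*) and by 1 in MY vs. MO (*Nts*), against 25.9% and 23.7% of all genes in either direction. In batch 1 alone it was passed by 2 of 9 in WO vs. MO, *Pdyn* upward and *Cck* downward, and by 0 in MY vs. MO, against 14.4% and 24.9% of all genes. The summed FPKM of the 9 was 442, 534, 526, 617 and 551 in MO1 to MO5 and 521, 517, 501, 496 and 474 in WO1 to WO5, so that MO1 was below all WO mice and the other 4 MO mice were above them. In the young mice the sum was 661, 451 and 538 in WY1 to WY3 and 495, 530 and 508 in MY1 to MY3.

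*Tac1* encodes the precursor of substance P and neurokinin A. Its level was 5.38, 4.76 and 5.13 in the WY mice and 5.04, 5.05 and 4.98 in the MY mice. In the WO mice it was 4.85, 5.14, 5.09, 4.95 and 4.77, and in the MO mice 5.09, 5.49, 5.30, 5.35 and 5.30. Every MO mouse was above every MY mouse, whereas MO1 fell within the range of WO and the other 4 MO mice were above it. *Tac1* was higher in MO than in WO by a log2 fold change of 0.34 ± 0.09 (SE, 95% interval 0.15 to 0.54, FDR 0.0137), and higher than in MY by 0.28 ± 0.08 (0.10 to 0.47, FDR 0.0340). Without MO5 the log2 fold changes were 0.35 (FDR 0.0276) and 0.29 (FDR 0.0584). The difference between MO and WO was 0.27 among the 6 old mice of batch 1 and 0.46 among the 4 of batch 2. In batch 1 alone, the FDR of WO vs. MO was 0.211 and that of MY vs. MO 0.104.

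*Tac2* encodes the precursor of neurokinin B. Its level was 6.76, 6.05 and 6.27 in the WY mice and 5.84, 6.10 and 5.91 in the MY mice. In the WO mice it was 5.95, 5.97, 5.86, 5.83 and 5.65, and in the MO mice 5.48, 6.24, 6.33, 6.63 and 6.40. MO1 had the lowest level of all 16 mice, and the other 4 MO mice were above every WO and MY mouse. The log2 fold change of *Tac2* was 0.36 ± 0.18 in WO vs. MO (FDR 0.164) and 0.26 ± 0.23 in MY vs. MO (FDR 0.453), neither of which passed. Without MO1 it was 0.55 (FDR 0.00145) and 0.45 (FDR 0.0145), and without MO5 it was 0.32 (FDR 0.279) and 0.22 (FDR 0.586). The difference between MO and WO was 0.09 in batch 1 and 0.77 in batch 2, and MY vs. MO was 0.06 in batch 1 (FDR 0.877).

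*Pdyn* encodes prodynorphin, the source of dynorphins, and *Penk* proenkephalin, the source of enkephalins. The level of *Pdyn* was 3.38, 2.96 and 3.14 in the WY mice and 3.33, 3.37 and 3.24 in the MY mice. In the WO mice it was 3.30, 3.04, 3.09, 3.37 and 2.90, and in the MO mice 3.38, 3.58, 3.51, 3.50 and 3.52. All MO mice were above all WO and all MY mice, by a small margin in the case of MO1. Of the 9 precursors, *Pdyn* was the only one for which all MO mice were above the WO mice, 1 of 9 against 11.3% of all genes and 0.397% by chance order. In MY vs. MO this held for 3 of 9, *Tac1*, *Pdyn* and *Nts*, and for 15.7% of all genes (1.79% by chance order). *Pdyn* was higher in MO than in WO by 0.36 ± 0.08 (0.17 to 0.54, FDR 0.00878) and higher than in MY by 0.19 ± 0.05 (0.06 to 0.31, FDR 0.0350). Without MO5 the values were 0.35 (FDR 0.0208) and 0.18 (FDR 0.0650). Of the 8 fits of MY vs. MO that each left out 1 mouse, 1 passed the FDR for *Pdyn* and 2 for *Tac1*. Between MO and WO the difference was 0.35 in batch 1 and 0.37 in batch 2, and in batch 1 alone the FDR was 0.0444 for WO vs. MO and 0.102 for MY vs. MO. *Penk* had the narrowest range of the 9, from 6.92 to 7.23 over the 16 mice, with log2 fold changes of −0.03 ± 0.07 in WO vs. MO (95% interval −0.18 to 0.12) and 0.00 ± 0.05 in MY vs. MO (−0.13 to 0.12). Without MO5 these were 0.0043 and 0.03.

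*Nts* encodes the neurotensin precursor. Its level was 4.80, 4.28 and 4.58 in the WY mice and 4.25, 4.55 and 4.23 in the MY mice. In the WO mice it was 4.23, 4.75, 4.54, 4.14 and 4.25, and in the MO mice 4.63, 4.99, 4.67, 4.83 and 4.83. All MO mice were above all MY mice, and WO2 was the only WO mouse above the lowest MO mouse. *Nts* was higher in MO than in WO by 0.41 ± 0.12 (0.15 to 0.67, FDR 0.0254) and higher than in MY by 0.45 ± 0.10 (0.21 to 0.68, FDR 0.0136). Without MO5 the log2 fold changes were 0.40 (FDR 0.0521) and 0.44 (FDR 0.0292). Between MO and WO the difference was 0.26 in batch 1 and 0.63 in batch 2, and in batch 1 alone the FDR was 0.330 in WO vs. MO and 0.0557 in MY vs. MO. With the WO mice of 190 days only, a choice made after seeing the data that also leaves out both WO mice of batch 2, the log2 fold change of WO vs. MO was 0.28 (FDR 0.162) for *Nts* and 0.28 (FDR 0.0902) for *Tac1*, while *Pdyn* (0.35, FDR 0.00963) and *Cck* (−0.38, FDR 0.0472) passed.

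*Cck* encodes cholecystokinin and *Grp* gastrin-releasing peptide, which takes part in itch signaling. The level of *Cck* was 5.96, 5.31 and 5.77 in the WY mice and 5.44, 5.70 and 5.64 in the MY mice. In the WO mice it was 5.98, 6.00, 5.86, 5.40 and 5.72, and in the MO mice 5.44, 5.33, 5.58, 5.86 and 5.63. The WO and MO groups overlapped as a whole, but in batch 1 the 3 WO mice were above the 3 MO mice, and in batch 2 MO4 was above both WO mice. The log2 fold change of WO vs. MO was −0.22 ± 0.13 over both batches (FDR 0.227) and −0.49 in batch 1 alone (FDR 0.0100), whereas the MO mice of batch 2 were higher than its WO mice by 0.18. In MY vs. MO the value for *Cck* was −0.03 ± 0.11, and without MO5 *Cck* gave −0.24 in WO vs. MO (FDR 0.258) and −0.04 in MY vs. MO (FDR 0.861). *Grp* ranged from 3.03 to 3.71 over the 16 mice with overlap of all groups, and differed by 0.12 ± 0.14 in WO vs. MO (FDR 0.601) and by −0.01 ± 0.14 in MY vs. MO, or by 0.17 (FDR 0.473) and 0.03 (FDR 0.905) without MO5.

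*Sst* encodes somatostatin, made in a large set of excitatory dorsal horn neurons, and *Npy* encodes neuropeptide Y. The level of *Sst* was 7.73, 7.13 and 7.45 in the WY mice, 7.34, 7.43 and 7.38 in the MY mice and 7.34, 7.36, 7.26, 7.23 and 7.21 in the WO mice. In the MO mice it was 6.77, 7.17, 7.20, 7.58 and 7.49. MO1 had the lowest *Sst* of all mice, the MO mice of batch 2 were above every WO mouse, and those of batch 1 were below every WO mouse. *Sst* differed by −0.04 ± 0.13 in WO vs. MO (FDR 0.866), by −0.27 in batch 1 and by 0.31 in batch 2, and by −0.14 ± 0.16 in MY vs. MO (FDR 0.589). Without MO5 these were −0.10 (FDR 0.636) and −0.21 (FDR 0.426). *Sst* in MY vs. MO was −0.34 in batch 1 (FDR 0.0860), −0.31 with the length trend removed (FDR 0.0991) and −0.02 without MO1 (FDR 0.899). For *Npy* the levels were 5.50, 4.86 and 5.25 in WY and 5.03, 5.09 and 5.17 in MY, and 4.91, 5.01, 5.24, 5.12 and 4.84 in WO and 5.08, 5.48, 5.42, 5.48 and 5.13 in MO. MO2, MO3 and MO4 were above every WO and MY mouse, whereas MO1 and MO5 lay among them. The log2 fold change of *Npy* was 0.29 ± 0.10 in WO vs. MO (0.06 to 0.52, FDR 0.0578) and 0.22 ± 0.11 in MY vs. MO (FDR 0.182), just missing the threshold in the former. Without MO5 the values were 0.34 (FDR 0.0406) and 0.27 (FDR 0.109).

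**Figure D2:**
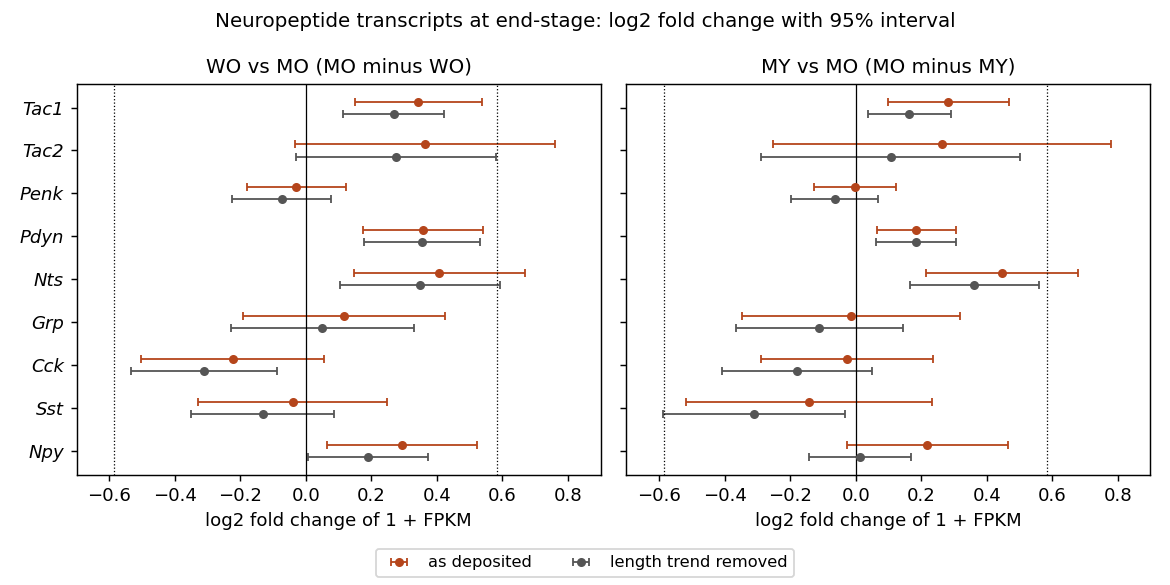
Log2 fold change of 1 + FPKM with its 95% interval for each neuropeptide precursor in WO vs. MO (left, MO minus WO) and MY vs. MO (right, MO minus MY). Red points are the values as deposited, grey points the values after removal of the transcript length trend of each mouse, and dotted lines mark a fold change of 1.5. As deposited, *Tac1*, *Pdyn* and *Nts* lie above 0 with their whole interval in both panels, and no point passes a dotted line.

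Age in control mice and genotype in young mice were compared next. None of the 9 precursors was called in WY vs. WO, where 0.253% of all genes were called and 1.12% passed the FDR alone, and none passed the FDR in that comparison. In this limma fit, 1 of the 9 had an unadjusted p under 0.05, against 13.5% of all genes. This was *Tac2*, for which every WO mouse was below every WY mouse, with a log2 fold change of −0.51 ± 0.15 (−0.84 to −0.17, FDR 0.172). Its highest WO mouse (5.97) was close to the lowest WY mouse (6.05). None of the 9 was called in WY vs. MY, where 0.00550% of all genes were, and limma gave no unadjusted p under 0.05 among them, against 7.16% of all genes. The largest difference there was again that of *Tac2*, at −0.41 ± 0.18 (−0.85 to 0.03, FDR 0.700). Without WY1 the values of *Tac2* were −0.31 in WY vs. WO and −0.21 in WY vs. MY, and without WY2 they were −0.66 and −0.56. The 95% intervals in this comparison of 3 against 3 mice reached as far as −0.85 (*Tac2*) and 0.42 (*Pdyn*). WY vs. WO and WY vs. MY share the WY mice.

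The difference between the age effects of the genotypes, (MO − MY) − (WO − WY), was tested itself. It was called for 1 of 9, *Nts*, at 0.62 ± 0.20 (0.18 to 1.05, FDR 0.0498), against 5.61% of all genes, or 10.5% for higher values at the FDR alone. From young to old the mean of *Nts* went from 4.34 to 4.79 in mutant mice and from 4.55 to 4.38 in control mice. The call was lost without MO5 (0.60, FDR 0.0707), in batch 1 alone (0.46, FDR 0.236) and without WY1 (0.49, FDR 0.146), and over the 16 fits that each left out 1 mouse the FDR ranged from 0.0172 to 0.146. For *Tac2* the difference was larger but more variable, at 0.77 ± 0.29 (FDR 0.0816), and it passed without MO1 (0.95, FDR 0.00425) and without WY2 (0.93, FDR 0.0421). *Tac1* (0.41 ± 0.17, FDR 0.111) and *Npy* (0.40 ± 0.19, FDR 0.172) did not pass, and both did so without WY2 (0.58, FDR 0.0127, and 0.57, FDR 0.0301). Without WY1 the values fell to 0.57 for *Tac2* (FDR 0.227), 0.27 for *Tac1* (FDR 0.309) and 0.25 for *Npy* (FDR 0.436), and in batch 1 that of *Tac2* was 0.50 (FDR 0.342).

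WY1 was above its group mean for all 9 precursors and WY2 below it for all 9, by a median of 0.27 and 0.31 on the log2 scale. Of the old mice, MO1 and WO5 were below their group means for 8 of 9, and MO4 was above for 8 of 9. After the group mean was subtracted, 34 of the 36 pairs of precursors had a Pearson's r above 0 over the 16 mice, with a median r of 0.53. The highest was that of *Tac2* with *Sst* (r = 0.944, Spearman's rho = 0.829). It was 0.879 without MO1 and MO4, the mice farthest from the median of *Tac2*, and 0.954 in the 12 mice of batch 1. *Tac1* varied with *Npy* (r = 0.844, rho = 0.791), and this r was 0.712 without WY1 and WY2 and 0.894 in batch 1. *Tac1* also varied with *Nts* (r = 0.828, rho = 0.859), at 0.777 without WY1 and WY2 and 0.874 in batch 1. *Npy* and *Grp* gave r = 0.820 (rho = 0.826), with 0.813 without WY1 and WY2 and 0.825 in batch 1. *Penk* gave an r of 0.06 with *Tac1*, 0.07 with *Tac2*, 0.06 with *Sst*, 0.00 with *Cck* and −0.23 with *Nts*, but 0.56 with *Pdyn* (0.756 in batch 1, 0.402 without WY1 and WO2, and 0.356 with the length trend removed), 0.28 with *Npy* and 0.21 with *Grp*. These values were not stable, as r with *Tac1* was −0.54 without WY1 and WY2 and r with *Cck* was 0.44 in batch 1. These correlations describe 16 mice in which all values came from the same libraries, and no test was made.

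The genes most like each precursor were sought by the same measure among 12649 named genes with a mean of at least 1. For *Tac1* they were *Rpl7* (r = 0.910), *Marcks* (0.892) and *Psmb2* (0.886). For *Tac2* they were *Akr7a5* (0.968), *Banf1* (0.953) and *Sst* (0.944), and *Akr7a5* was also the gene most like *Sst* (0.978), ahead of *Flywch2* (0.958) and *Rmdn3* (0.955). *Nts* was most like *Bbip1* (0.929), *Smim8* (0.923) and *Tmsb4x* (0.918). *Pdyn* was most like *Il11ra1* (0.904), *Ccs* (0.891) and *Fam53a* (0.815), and *Penk* most like *Becn1* (0.949), *Btbd6* (0.928) and *Dcaf11* (0.923). *Npy* was most like *Hoxb7* (0.902), *Sec11a* (0.896) and *Lsm6* (0.879), *Grp* most like *Id3* (0.880), *Fbxo25* (0.850) and *Ptgr2* (0.838), and *Cck* most like *C1qtnf4* (0.924), *Ccdc85b* (0.899) and *Glrx5* (0.880). The genes of these 27 cases were picked by their r over the same 16 mice, so high values are expected from the choice.

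Transcript length moved with several of these values. The neuropeptide transcripts are short, from 566 nt (*Npy*) to 1449 nt (*Penk*) with the exception of *Pdyn* (2386 nt), whereas the median of genes with a mean of at least 1 was 2690 nt. The 1205 such genes under 1000 nt had a median log2 fold change of 0.07 in WO vs. MO, 0.14 in MY vs. MO, −0.11 in WY vs. MY and 0.18 in the difference of age effects. For the 3321 genes of 4000 nt or more the medians were −0.07, −0.10, 0.05 and −0.12. By mouse, genes under 1000 nt deviated from their mean by a median of 0.13 in WY1, −0.14 in WY2 and 0.04 in WY3, with WY1 highest and WY2 lowest as for all 9 precursors. The deviation was −0.10, 0.15, 0.05, 0.21 and 0.04 in MO1 to MO5, −0.14, −0.05 and −0.10 in MY, and 0.01, 0.04, 0.05, −0.14 and −0.10 in WO1 to WO5. MO4 was thus the highest and WY2 the lowest for short genes.

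After the length trend of each mouse was removed, an alternative chosen after seeing the data, WO vs. MO was 0.35 for *Pdyn* (FDR 0.00764), 0.27 for *Tac1* (FDR 0.0162) and 0.35 for *Nts* (FDR 0.0370). *Cck* was lower in MO in this fit (−0.31, FDR 0.0408). In MY vs. MO *Nts* (0.36, FDR 0.0173) and *Pdyn* (0.18, FDR 0.0366) passed and *Tac1* did not (0.16, FDR 0.0639), and *Npy* went from 0.22 to 0.01, and from 0.29 to 0.19 in WO vs. MO (FDR 0.115). The difference of age effects of *Nts* no longer passed (0.49, FDR 0.0706), and it was 0.25 for *Tac1* (FDR 0.187) and 0.16 for *Npy* (FDR 0.432). Of the 36 pairs of precursors, 21 had an r of at least 0.5 before and 8 after the removal, and the median r went from 0.53 to 0.26. The r of *Tac2* with *Sst* was then 0.868, that of *Tac1* with *Nts* 0.727 and that of *Tac1* with *Npy* 0.511. For the 27 cases of most similar genes, r after the removal ranged from 0.444 (*Npy* with *Lsm6*) to 0.919 (*Tac2* with *Akr7a5*). The gene nearest to a precursor changed for 6 of the 9, and *Tac2* and *Sst* no longer shared theirs.

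The receptors of the 9 peptides were examined as the other side of the same signaling. Of 17 receptor genes, 6 were lower in MO at the FDR in WO vs. MO and 5 in MY vs. MO, against 12.9% and 12.5% of all genes. None was higher, against 15.0% and 13.1% of all genes, and none was called, against 4.60% and 4.90%. The median log2 fold changes of the receptor genes were −0.04 and −0.13. *Tacr1*, the receptor of substance P, fell by 0.34 in WO vs. MO (FDR 0.000446) and by 0.28 in MY vs. MO (FDR 0.0101). The opioid receptor genes *Oprd1* (−0.49, FDR 0.000376, and −0.52, FDR 0.000469) and *Oprm1* (−0.47, FDR 0.0196, and −0.58, FDR 0.00237) were lower in the same comparisons. So were *Sstr3* (−0.38, FDR 0.000846, and −0.26, FDR 0.0291) and *Npy5r* (−0.30, FDR 0.00288, and −0.22, FDR 0.0444). *Cckbr* was lower in WO vs. MO alone (−0.28, FDR 0.0321), with −0.17 in MY vs. MO (FDR 0.241). The neurotensin receptor *Ntsr2*, which astrocytes also express, had by far the highest level (mean 6.90) and differed by 0.01 in WO vs. MO (FDR 0.963).

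Genes for cutting, storing and degrading the peptides moved in both directions. Of 7 processing genes, 2 were higher and 2 lower in WO vs. MO at the FDR, against 15.0% and 12.9% of all genes. These shares also belong to the counts of every list below from all mice and the deposited values, with 13.1% higher and 12.5% lower in MY vs. MO. Without MO5, 25.9% of all genes passed in either direction in WO vs. MO and 23.7% in MY vs. MO. With the length trend removed, 4930 and 4181 of 17419 genes passed. *Cpe*, the carboxypeptidase that trims the cut peptides, was higher in MO (0.41, FDR 0.000401), and the convertase genes *Pcsk1* (−0.24, FDR 0.0480) and *Pcsk2* (−0.23, FDR 0.00154) were lower. The other gene that was higher was *Pam*, an enzyme that amidates peptides (0.15, FDR 0.0250), while *Pcsk1n* (mean 7.49) differed by −0.09 (FDR 0.599). Of 9 genes of dense-core vesicles, 1 was higher and 3 were lower. *Scg3* was called in WO vs. MO (0.62, FDR 9.02e-05), *Chga*, the most abundant, was lower (−0.42, FDR 0.000922), and *Scg2* differed by 0.08 (FDR 0.443). Of 7 peptide-degrading enzymes, 2 were higher, *Anpep* (0.70, FDR 0.0128, called) and *Nln*, an enzyme that cuts neurotensin (0.44, FDR 0.000761), and 1 was lower, *Ace* (−0.24, FDR 0.0156). *Thop1* (mean 4.07) and *Dpp3* (mean 3.92), the most highly expressed enzymes by mean, differed by −0.07 and −0.05. Of 13 other spinal neuropeptide genes, 4 were higher and none lower in WO vs. MO: *Crh* (0.59, FDR 0.00151, called), *Adcyap1* (0.48, FDR 0.000377), *Gal* (0.36, FDR 0.0397) and *Vip* (0.35, FDR 0.0355). In MY vs. MO, *Adcyap1* (0.40, FDR 0.00488) and *Trh* (0.21, FDR 0.0163) passed, and *Crh* (−0.10, FDR 0.656), *Gal* (0.18, FDR 0.350) and *Vip* (0.29, FDR 0.113) did not. The mean of *Crh* was 0.93 in WY, 1.85 in MY, 1.17 in WO and 1.76 in MO. Its difference in WY vs. MY was larger than in WO vs. MO but did not pass (0.92, FDR 0.455). *Cartpt* (−0.21, FDR 0.191) and *Calcb* (0.37, FDR 0.146), the highest by mean in that list, did not pass in WO vs. MO. Of 135 genes in the lists other than the precursors and sex genes, 29 were higher and 35 lower at the FDR in WO vs. MO, and 26 and 32 of these also passed without MO5. *Pam* (FDR 0.0525) and *Vip* (FDR 0.0563) did not, and *Gad1* passed only without MO5 (−0.13, FDR 0.0359). The numbers for MY vs. MO were 23 and 35, of which 22 and 32 passed without MO5, and *Npy5r* (FDR 0.0827) did not. Another 3 genes passed in MY vs. MO only without MO5, *Gal* (0.28, FDR 0.00899) among them. With the length trend removed, lower processing genes went from 2 to 1 in WO vs. MO and from 2 to 0 in MY vs. MO. Higher genes among the other spinal neuropeptides went from 4 to 3 and from 2 to 1. Some counts rose, as higher peptide-degrading enzymes in MY vs. MO went from 1 to 3 and higher receptor genes in WO vs. MO from 0 to 1.

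Markers of cell types also differed between these groups, and their part in the values of the neuropeptides was not tested. Among the 21 genes listed for dorsal horn neurons, 3 were higher and 5 lower in WO vs. MO at the FDR, with a median of 0.07. Neurons elsewhere in the cord also contributed to these genes, so the values are not those of the dorsal horn alone. *Slc6a5*, the glycine transporter of inhibitory neurons, was called lower (−0.78, FDR 0.00224), *Calb2* was lower (−0.35, FDR 0.0138), *Ecel1* was higher (0.57, FDR 0.00342, and 0.71 in MY vs. MO, where it was called) and *Gad1* differed by −0.10 (FDR 0.124). The summed FPKM of this list, of which *Calb2* was the most abundant, was 433 to 466 in MO, 516 to 540 in WO, 515 to 539 in MY and 459 to 532 in WY. Of 10 markers of all neurons, 8 were lower in MO than in WO (median −0.29), including *Snap25* (−0.41) and *Nefl* (−0.75, called). With the length trend removed, these 8 fell to 6, and the 7 that were lower in MY vs. MO fell to 6. Of 7 markers of motor neurons, 6 were lower (median −0.50), including *Chat* (−0.67), *Slc5a7* (−0.49) and *Chodl* (−1.74), and *Prph*, the most abundant, differed by −0.10. Their summed FPKM was 107, 113, 91.8, 125 and 103 in MO1 to MO5 and 141 to 171 in WO, with no overlap. Any link between this sum and the values of the precursors was not tested.

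For glia, 8 of 9 microglial markers were higher in MO than in WO (median 1.28), among them *Cd68* (3.22), *Trem2* (2.73) and the most abundant, *Tyrobp* (2.69). The *Csf1r* gene of microglia differed by 1.28. Summed FPKM of the microglial markers was 442, 709, 862, 446 and 497 in MO1 to MO5 and 140, 156, 166, 111 and 101 in WO1 to WO5, with MO2 and MO3 the highest. Among these old mice, the summed FPKM of the 9 precursors was highest in MO4, and any link between these sums was not tested. Of 7 astrocyte markers, 6 were higher (median 0.69), among them *Gfap*, the most abundant (1.60), *Aqp4* (0.83), *Aldh1l1* (0.69) and *Sox9* (0.69), while *Slc1a2* differed by 0.16 (FDR 0.0633). Sensory neurons of the dorsal root ganglia, whose axons enter the cord, also make substance P. Their markers *Scn10a*, *Scn11a* and *Trpv1* were near 0 in the cord (means 0.01, 0.02 and 0.05), *Mrgprd* was not analysed here, and 2 of 9 were higher and 3 lower in WO vs. MO. *Calca*, which motor neurons also express, was called higher (1.38, FDR 0.00102), *Avil* was higher (0.36, FDR 0.00239, and 0.39, FDR 0.00600, in MY vs. MO), and *Tubb3*, the most abundant, was lower (−0.32, FDR 0.0150).

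For oligodendrocytes, 2 of 6 markers were lower at the FDR in WO vs. MO and 4 in MY vs. MO, where *Mog* (−0.93) and *Cnp* (−0.60) were called. With age in control mice (WY vs. WO), 3 of the 6 were also lower at the FDR, against 1.12% of all genes. They were *Mog* (−0.77, FDR 0.0178), *Mag* (−0.36, FDR 0.0239) and *Cnp* (−0.53, FDR 0.0418). None of the 6 passed in the difference of age effects. *Mbp*, the most abundant, did not pass in WO vs. MO (1.55, FDR 0.479). Its level was 5.36 in WO4 against 12.42 to 14.22 in the other WO mice, and without WO4 the difference was 0.03 (FDR 0.982). None of 5 Schwann cell markers passed in WO vs. MO (*Pmp22* −0.01, *Sox10* −0.27). In MY vs. MO, 2 of the 5 were lower, *Sox10* (−0.47, FDR 0.00823) among them. The lists used for these 2 cell types are partial. Among 5 markers of meningeal fibroblasts *Ptgds* alone was higher (1.14, FDR 0.000502), whereas *Dcn* differed by 0.03. None of 4 blood markers passed (*Hba-a1* −0.89, FDR 0.142, and *Alas2* −0.47, FDR 0.0569). The other 2 were near 0 (means 0.00334 and 0.0115), so they could not show a change. Summed FPKM of the blood markers was 11.7 in MO1, 64.4, 60.4, 60.5 and 43.3 in MO2 to MO5, and 61.1 to 96.8 in WO.

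Promoter sequences were examined for precursors that varied together. In the promoters of RefSeq GRCm38.p6 (250 bases before to 50 after each start), 7 of the 9 genes had an entry, and *Penk* and *Grp* had none. Both strands were searched for TGACGTCA, the cyclic AMP response element, and for its part TGACG, which overlaps it. A match on the strand opposite to the gene reads CGTCA. TGACGTCA was found in *Sst* alone among the 7, and in 1.79% of all 32851 promoters. TGACG was found in 4 of the 7, *Tac1*, *Nts*, *Cck* and *Sst*, and in 20.8% of all promoters. The stretches around the matches are shown 5′ to 3′ on the strand of the gene, with matching bases in capitals, to compare every match among the 7. Of the 3 pairs with the highest r, both genes had a match in *Tac1* with *Nts*, and 1 gene had a match in *Tac2* with *Sst* and in *Tac1* with *Npy*.
Tac1: ccctaaaattgCGTCAtttcgaacaca
Tac1: ctctacaggctCGTCAcgcctgagata
Nts: ttagggaagatCGTCActttccatcaa
Cck: ctgctggactgCGTCAgcactgggtaa
Sst: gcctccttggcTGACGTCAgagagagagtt
They lie at chr6:7554853-7554879 and chr6:7555007-7555033 (*Tac1*, plus strand), chr10:102490569-102490595 (*Nts*, minus strand), chr9:121495726-121495752 (*Cck*, minus strand) and chr16:23890874-23890903 (*Sst*, minus strand). All are upstream of the RefSeq start, with the motif beginning at −197 and −43 in *Tac1*, −166 in *Nts*, −47 in *Cck* and −48 in *Sst*. In GENCODE M21 transcripts that start farther upstream, the second *Tac1* stretch and that of *Sst* lie within a first exon, 1 base of the first *Tac1* stretch does, and those of *Nts* and *Cck* lie outside any exon of the gene. *Tac2*, *Npy* and *Pdyn* had no match in this window. A match is a description, not a site or a cause.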

How the data were processed

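The deposited log2 values, log2(1 + FPKM), came from the authors. Their methods name Trimmomatic for cleaning, TopHat for alignment (mm10) and Cufflinks for FPKM, followed by removal of genes at 0 in many samples and ComBat over the 2 batches, whose covariates are not given in the sources used here. Of the deposited values 915 are below 0 and none is exactly 0. The number of reads per gene is unknown, so errors are spreads over mice, and the added 1 understates fold changes of low genes.

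Pairs of groups were fitted with limma 3.58.1 in R 4.3.3 (two-sided, Benjamini-Hochberg FDR over all 18167 genes), second group minus first, and the difference of age effects in 1 fit of 4 groups. The fits were tested on simulated data. Genes named from other lists were those called in WO vs. MO or MY vs. MO (all if 5 or fewer, otherwise the 3 with the largest change), the 2 with the highest mean and, per precursor, the 3 with the highest r. *Tacr1*, *Oprd1*, *Oprm1*, *Sstr3*, *Npy5r*, *Pcsk1*, *Pcsk2*, *Pam*, *Nln*, *Ace*, *Adcyap1*, *Gal*, *Vip*, *Trh*, *Avil*, *Scn10a*, *Scn11a* and *Trpv1* were named after their values were seen. Transcript length was the median of GENCODE M21 basic transcripts on GRCm38 (17419 genes), and its trend was removed by lowess (span 0.3). Python 3.11.15 was used for summaries. The neuropeptides and gene lists were chosen with earlier results of these data known.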

Additional observations from a re-analysis of the deposited data

Results flagged for a closer look

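The difference between the age effects of *Nts* in mutant and control mice stood out because its own limma test passed, at 0.62 on the log2 scale (FDR 0.0498). It was 1 of 9 precursors, against 10.5% of all genes with higher values at the FDR alone and 5.61% called. All MO mice were above all MY mice, whereas WO and WY overlapped. The FDR passed in 3 of 9 alternatives (range 0.0397 to 0.236) and in 5 of 16 fits that left out 1 mouse. In the 18 groups of 5 old mice (9 precursors in WO and MO), Dixon's test set no single mouse apart, MO1 for *Tac2* and *Sst* included.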

How the results depend on the processing

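Refitting the 45 log2 fold changes (9 precursors, 5 comparisons) under other settings gave 405 values, of which 361 kept both the direction and the side of the FDR threshold, 22 lost a pass, 6 gained one and 16 reversed. With the fold change of 1.5 no precursor was called in WO vs. MO or MY vs. MO, and at the FDR alone 3 passed in each. In MY vs. MO these 3 fell to 0 in batch 1 alone, which has fewer mice but where 24.9% of all genes passed. They fell to 1 (*Nts*) with batch as a term, a pseudocount of 0.1, or all 4 groups in 1 fit, where 22.7% to 24.6% of all genes passed. The cause was not tested in either case. The call of *Nts* in the difference of age effects went from 1 to 0, with or without the fold change, in batch 1 alone, with batch as a term, with a pseudocount of 0.1, after removal of the length trend and with the WO mice of 190 days only. The last 2 were chosen after seeing the data. The mean levels of the 9 over all mice moved by less than 1 SD in batch 1 alone, after quantile normalization and with the other pseudocount.

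Numbers shared by mice did not pair them: the correlation of deviations from the group means ran from −0.21 to 0.09 in WO vs. MO and from 0.09 to 0.18 in MY vs. MO, from −0.13 to 0.38 in WY vs. WO and from −0.20 to −0.02 in WY vs. MY. With the number as a replicate block, 1 precursor passed in MY vs. MO, 0 in the difference of age effects and 4 in WO vs. MO. Of all 18167 genes, 3746, 2869 and 4115 passed in these fits.

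No reversed value passed the FDR. *Penk* was 0.052 in WO vs. MO in batch 1 and 0.028 with the WO mice of 190 days, 0.022 in MY vs. MO in batch 1, with batch as a term and with the replicate block, and 0.015 in the difference of age effects in batch 1. *Sst* in that difference was −0.23 in batch 1, −0.11 after quantile normalization, −0.20 after removal of the length trend and −0.031 with the WO mice of 190 days. In WY vs. MY, *Sst* was 0.032 after quantile normalization, and removal of the length trend gave 0.016 for *Tac1*, 0.064 for *Sst*, 0.028 for *Npy*, 0.017 for *Cck* and 0.0044 for *Grp*. The cause was not tested.

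With each mouse left out in turn, 2 to 5 precursors passed the FDR in WO vs. MO (5 without MO1), 0 to 4 in MY vs. MO (4 without MO1, 0 without MY1 or MY3) and 0 to 4 in the difference of age effects (4 without WY2), where 0 to 2 were called. Of all 18167 genes, 4008 to 5141, 2586 to 5130 and 2227 to 3939 passed in these fits, and 808 to 1292 were called in the last. The number in MY vs. MO was lowest without MY1 and highest without MO1. Of 432 fold changes of precursors with 1 mouse left out, 360 kept direction and side, 31 lost a pass, 10 gained one and 31 reversed. In WO vs. MO, *Penk* ran from −0.072 to 0.0043 and *Sst* from −0.12 to 0.079. In MY vs. MO, *Penk* ran from −0.025 to 0.031, *Cck* from −0.10 to 0.033 and *Grp* from −0.090 to 0.064. In WY vs. WO, *Tac1* ran from −0.29 to 0.016, *Pdyn* from −0.12 to 0.10 and *Cck* from −0.073 to 0.25. In WY vs. MY, *Tac1* ran from −0.23 to 0.076, *Penk* from −0.020 to 0.13, *Sst* from −0.20 to 0.098, *Npy* from −0.27 to 0.044, *Cck* from −0.27 to 0.050 and *Grp* from −0.19 to 0.021, each lowest without WY2 and highest without WY1. In the difference of age effects, *Sst* ran from −0.14 to 0.16 and *Cck* from −0.27 to 0.047. The depth behind single genes is unknown.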
